A study of Mus musculus with 17 samples.

Results

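Zfp385a, also known as Hzf and listed on the arrays under its older symbol Zfp385, was followed over 17 mammary tumors from CUX1 transgenic mice. It is 1 of the 27670 genes tested and has 3 of the 41174 probes. Its probes were found by the gene symbol in the scanner files and by the accession on which each probe was designed. The gene itself was chosen by its difference between the high-Wnt and low-Wnt tumors on these same arrays, as the first in order of p among genes taken for transcription factors by the pattern of their symbols, and because it was measured in every tumor. For that reason the levels in the Wnt clusters are given as a description with no test, and the small spread within clusters is partly favored by the choice. Tests are given for comparisons made within the clusters and for other genes.

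The tumors came from FVB mice that carry CUX1 as a transgene driven by the promoter of the mammary tumor virus MMTV, which is active in mammary epithelium, as the p75 isoform in 9 mice and as the p110 isoform in 8. A tumor's name gives the isoform and the number of the mouse. There were 9 solid carcinomas, 4 adenosquamous carcinomas, 2 adenomyoepitheliomas, 1 adenocarcinoma and 1 adenoma, and the study drew 5 tumors as high-Wnt, 5 as medium-Wnt and 7 as low-Wnt from the expression of Wnt genes on these arrays. All tumors carry a CUX1 transgene, no untransgenic mammary gland stands among the groups, and the ages of the mice are not given in the sources used here. Epithelial cells were cut from frozen sections by laser, their RNA was amplified in 2 rounds, and each tumor was set against amplified universal mouse reference RNA on Agilent 2-color arrays with the dyes swapped, on 38 arrays in all. Values below are log2 ratios of tumor over reference, averaged over the arrays of a tumor, unless a sentence names another scale. A lower value can mean fewer cells that express the gene or less RNA per cell, which cannot be told apart. Measured, for a gene in a tumor, means that the tumor-side signal exceeded background clearly, by the scanner software's mark, on each of that tumor's arrays.

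The arrays differed in ways that touch the results. Between 20.9% and 65.0% of the probes were well above background in the color of the tumor. The tumor color of p110-98, p110-374 and p110-225 was weak, with a reference 11.5, 11.1 and 8.23 times as bright at the 95th percentile of the spots against at most 3.95 times elsewhere, so values are also given without these 3. The p75 and p110 arrays were scanned in different years, and isoform and scan year cannot be told apart.

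Zfp385a encodes a zinc finger protein that binds nucleic acids and is itself induced by p53. It binds p53 and is known to favor the binding of p53 to genes of cell cycle arrest over genes of cell death. It also binds RNA, was found in neurons to associate with the mRNA of the calcium channel gene Itpr1 and in fat cells with that of Cebpa, and is expressed in megakaryocytes.

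Zfp385a lies on chromosome 15, from 103313895 to 103340086 on GRCm38.p6. The probes were placed by the array's design on an earlier build, mm7, on the minus strand of the same chromosome, and positions from the builds are not mixed here. Parts of the probe sequences are shown because the probes gave different results. In the first, capitals mark AATAAA, the hexamer that signals cleavage and polyadenylation of an mRNA. It stands at bases 23 to 28 of the probe, and the sense strand of 1967 of the 41170 probes with a sequence holds it (4.78%). In the third, capitals run from a TGT to a TGC codon, a pair of cysteine codons spaced as in a zinc finger.
A_51_P152032, bases 11 to 40: tctctctttgacAATAAAgtctggatttgt
A_51_P152040, bases 1 to 30: agaacatggattttcttggcaataagcgga
A_52_P29392, whole probe: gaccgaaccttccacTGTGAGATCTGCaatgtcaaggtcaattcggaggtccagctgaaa
A_51_P152032 lies at 103302704 to 103302763, and is the probe nearest the 3′ end of the gene. A_51_P152040 lies at 103303391 to 103303450, 627 bases upstream in the sense of transcription, and was designed on the same RefSeq transcript, NM_013866. A_52_P29392 lies at 103304448 to 103304507, another 997 bases upstream, and was designed on the cDNA BC017644. Its first reading frame has 0 stop codons.

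A_51_P152032, the brightest of the 3 probes, stands for the gene. It was well above background in both colors on 38 of 38 arrays. In the high-Wnt tumors its log2 ratio was 1.68 in p75-80, 1.56 in p110-374, 1.13 in p75-94, 0.79 in p110-225 and 0.76 in p75-47. In the low-Wnt tumors it was -0.11 in p110-143, -0.76 in p75-150, -0.92 in p110-416, -1.11 in p110-360, -1.44 in p75-101, -1.54 in p75-534 and -1.59 in p110-314. The clusters did not overlap, with a gap of 0.87 between the lowest high-Wnt and the highest low-Wnt tumor. With median centering of the arrays in place of loess they did overlap, from -1.75 to 1.09 in high-Wnt and from -2.41 to -0.67 in low-Wnt tumors, and 3 of the 5 high-Wnt tumors lay above all low-Wnt tumors. The medium-Wnt tumors had 1.22 in p75-90, 1.20 in p110-121, 0.35 in p110-98, 0.03 in p75-129 and -0.56 in p75-216. They spanned the range between, and 4 of the 5 lay above all low-Wnt tumors.

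The log2 ratio averaged 1.18 ± 0.43 (SD, n = 5) over the high-Wnt tumors, 0.45 ± 0.77 (SD, n = 5) over the medium-Wnt tumors and -1.07 ± 0.53 (SD, n = 7) over the low-Wnt tumors. High-Wnt tumors were 2.25 above low-Wnt tumors, or 4.76-fold, the difference by which the gene was chosen. Medium-Wnt tumors were 1.52 above low-Wnt tumors, or 2.86-fold, with values that overlapped. The difference between high-Wnt and medium-Wnt tumors, 0.74 or 1.67-fold, was smaller than the SD among the medium-Wnt tumors, and these values overlapped too. Of the difference of 2.25, the tumor's color contributed 2.52 and the reference color, which was 0.27 higher on the arrays of high-Wnt tumors, took 0.27 away. Both scan years held tumors of each cluster. Within them high-Wnt tumors were 2.10 (2 against 4 p110 tumors) and 2.44 (3 against 3 p75 tumors) above low-Wnt tumors. The clusters do not overlap within a year because they do not overlap over all tumors. The split is a description and no check of the choice of the gene.

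**Figure D1:**
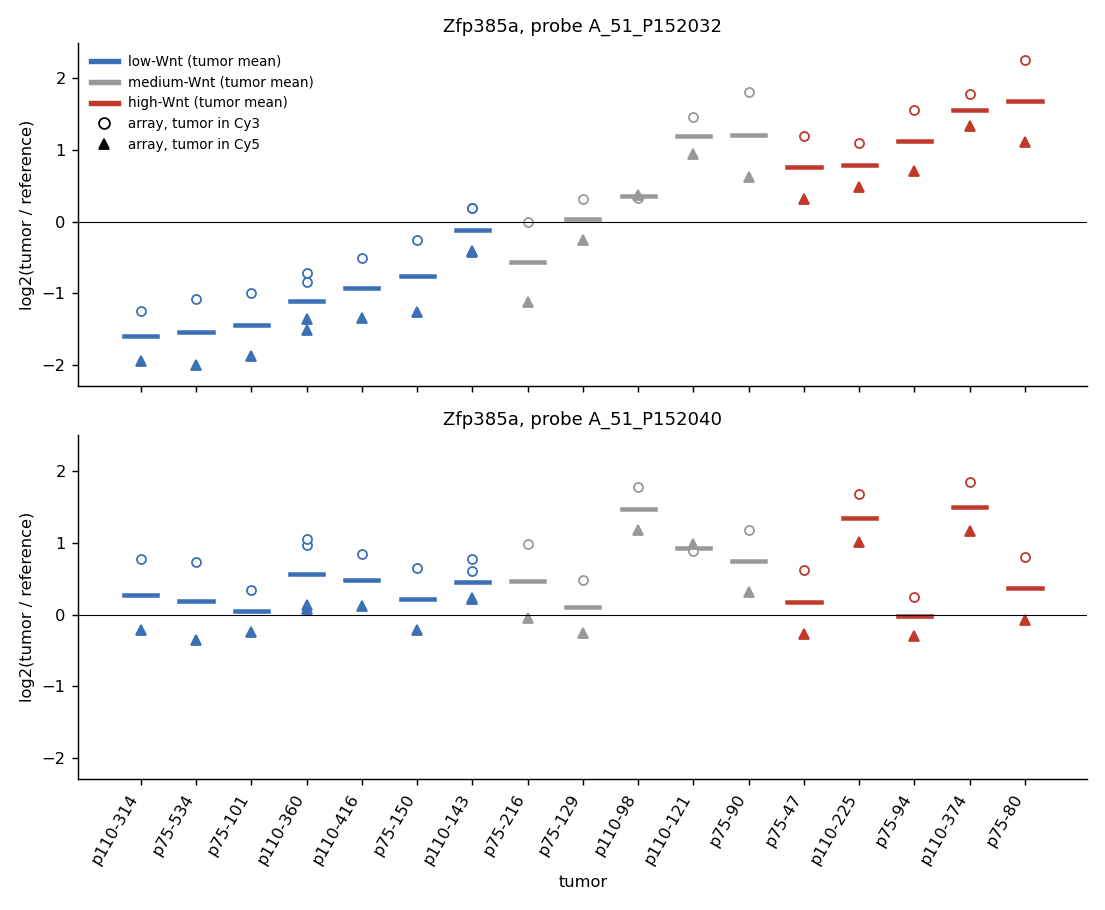
Log2 ratio of tumor over reference at A_51_P152032 and A_51_P152040 in each of the 17 tumors, with horizontal lines for tumor means and colors for Wnt clusters. Open circles are arrays with the tumor in Cy3 and filled triangles arrays with the tumor in Cy5. At the first probe the 5 high-Wnt tumors lie between 0.76 and 1.68 and the 7 low-Wnt tumors between -1.59 and -0.11, while at the second probe the clusters overlap.

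Repeat arrays show how well a tumor's value is known. At A_51_P152032 the ratio was higher with the tumor in Cy3 than in Cy5 in 16 of 17 tumors, by 0.76 ± 0.30 (SD, n = 17), an effect of the dye that the average over swapped arrays removes where it is common to all tumors. Its spread over tumors gives a technical SD of 0.151 for a tumor's mean, which covers labeling and hybridization but not microdissection or amplification. In p110-143 and p110-360, which were hybridized on 4 arrays each, the 2 dye-swapped pairs differed by -0.00037 and 0.14. In the order of the 17 tumors, 1 of the 16 neighboring pairs, p110-143 and p75-216, differed by more than 2 standard errors of a difference (0.428). The other 15 neighbors do not differ beyond the technical error.

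The second probe gave another picture in the ratio. A_51_P152040 was also measured in 17 of 17 tumors, with averages of 0.67 ± 0.70 (SD, n = 5) over the high-Wnt tumors, 0.75 ± 0.51 (SD, n = 5) over the medium-Wnt tumors and 0.32 ± 0.19 (SD, n = 7) over the low-Wnt tumors. High-Wnt tumors were 0.36 above low-Wnt tumors, or 1.28-fold. The high-Wnt tumors had 1.51 in p110-374, 1.34 in p110-225, 0.37 in p75-80, 0.18 in p75-47 and -0.02 in p75-94, and 2 of the 5 were above the highest low-Wnt tumor. The low-Wnt tumors ran from 0.04 in p75-101 to 0.56 in p110-360, with a median of 0.28 in p110-314. The medium-Wnt tumors had 1.48 in p110-98, 0.93 in p110-121, 0.75 in p75-90, 0.47 in p75-216 and 0.11 in p75-129. The 3 highest values of this probe were those of the 3 tumors with the weakest color against the reference. Over the 17 tumors its log2 ratio correlated with the log2 brightness of reference over tumor with a Pearson r of 0.93, against 0.59 for A_51_P152032, as a description over tumors that share arrays and reference.

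**Figure D2:**
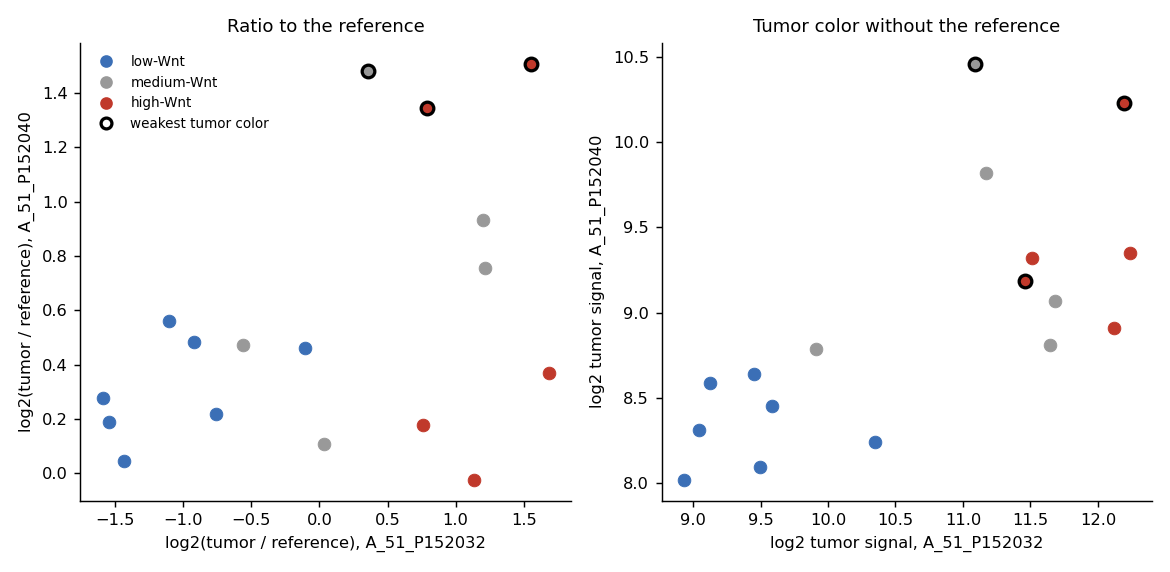
A_51_P152040 against A_51_P152032 in the 17 tumors, as log2 ratios of tumor over reference on the left and as log2 tumor color without the reference on the right, with the 3 tumors of weakest color ringed. The probes correlate with r = 0.44 in the ratio and with r = 0.70 in the tumor color, where both place all high-Wnt tumors above all low-Wnt tumors.

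When the tumor's color was read alone, quantile normalized and without the reference, both probes separated the clusters. At A_51_P152040 the log2 signal was 8.91 to 10.2 in high-Wnt and 8.02 to 8.64 in low-Wnt tumors, a mean difference of 1.07. At A_51_P152032 it was 11.5 to 12.2 and 8.93 to 10.3, a mean difference of 2.48. The reference signal at the second probe was 0.61 higher on the arrays of high-Wnt than of low-Wnt tumors. With median centering of the arrays in place of loess, the second probe's difference in log2 ratio was -0.36. The ratios of the probes correlated over the 17 tumors with a Pearson r of 0.44 and a Spearman rho of 0.37, with r = 0.31 over the p75 and 0.83 over the p110 tumors, and with r = 0.28 without the 3 tumors of weakest color.

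Other genes give a scale for this disagreement. Among the 1554 genes with 2 or more measured probes, r between probes had a median of 0.51 and quartiles of 0.157 and 0.809, and 44.9% had a lower r than Zfp385a. The high-Wnt minus low-Wnt differences of the 2 Zfp385a probes were 1.90 apart, against a median of 0.293 and a 95th percentile of 1.18 over these genes. Only 0.129% of the genes had a larger gap, but the brightest probe of Zfp385a had been chosen for a large difference. A_52_P29392, over the zinc finger sequence, was well above background on 0 of 38 arrays in the tumor's color and on 3 in the reference, and its log2 ratios of -0.35 to -0.05 give no level.

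Whether the CUX1 isoform went with the level of Zfp385a was compared within the Wnt clusters. The log2 ratio was 0.06 ± 1.20 (SD, n = 9) in p75 and 0.02 ± 1.15 (SD, n = 8) in p110 tumors. It averaged 1.19 in p75 and 1.17 in p110 tumors of the high-Wnt cluster, 0.23 and 0.78 in the medium-Wnt cluster, and -1.25 and -0.93 in the low-Wnt cluster. With the cluster in the model, p75 tumors differed from p110 tumors by -0.28 (standard error 0.28, 95% interval -0.88 to 0.31), which did not pass (limma adjusted p = 0.651, exact permutation within clusters p = 0.335). Without the 3 tumors of weakest color it was -0.51 (limma adjusted p = 0.679). With median centering in place of loess it took the other sign, at 1.15 (limma adjusted p = 0.0646), outside that interval. In this comparison limma called 4.19% of the 27670 genes, 252 higher and 906 lower in p75 tumors.

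At A_51_P152040 the isoforms did separate in the ratio. In a fit over all probes, which called 3.03% of them, p75 tumors were -0.71 from p110 tumors (standard error 0.14, limma adjusted p = 0.0210), and 8 of 8 p110 tumors lay above every p75 tumor of their cluster (exact permutation p = 0.000286, the smallest possible of 3500 arrangements). The isoforms were scanned in different years, and the tumors of weakest color are all p110. Without those 3 tumors the difference was -0.35 (limma adjusted p = 0.357), and with the brightness of reference over tumor as a covariate -0.27 (limma adjusted p = 0.460). Without p110-225 alone the adjusted p was 0.0576 and without p110-374 alone 0.0592. With the tumor's color read alone the difference was -0.19 (limma adjusted p = 0.685), and with median centering it was 0.39 (limma adjusted p = 0.181). The limma adjusted p was 0.105 with the tumor in Cy3 alone and 0.0560 with scaled arrays. The difference passed with the share of probes above background as a covariate (-0.53, limma adjusted p = 0.0101), without background correction (limma adjusted p = 0.00738), with the signals processed by Feature Extraction (limma adjusted p = 0.0128) and with the tumor in Cy5 alone (limma adjusted p = 0.00741). At this probe the high-Wnt minus low-Wnt difference was 0.02 in p75 and 0.98 in p110 tumors, given as a description of the contrast that chose the gene.

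**Figure D3:**
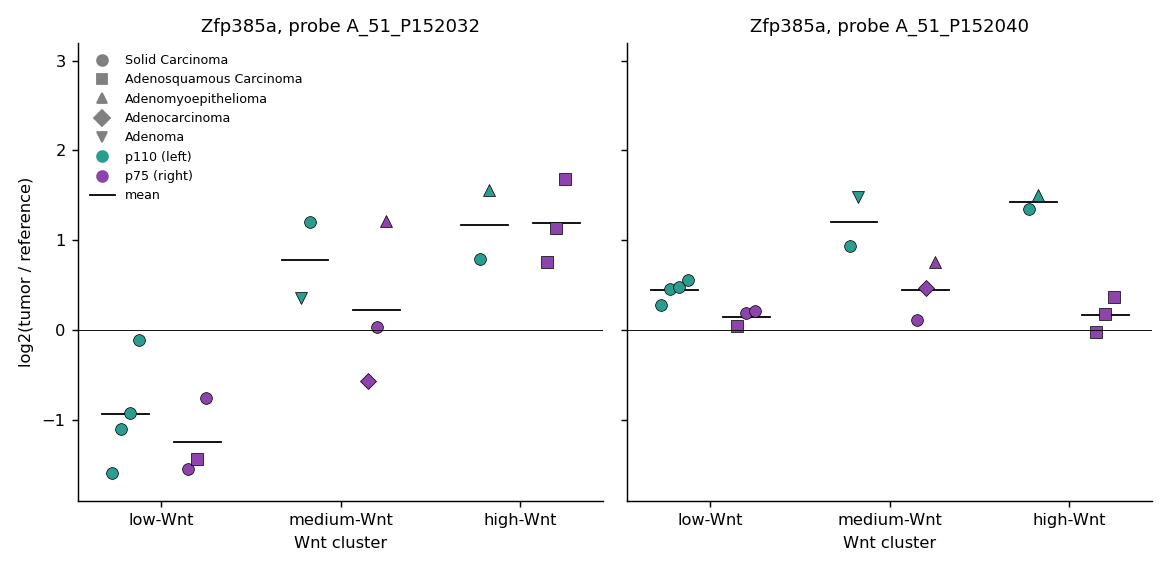
Log2 ratio of tumor over reference at A_51_P152032 (left) and A_51_P152040 (right) for each tumor, by Wnt cluster. Colors mark the CUX1 isoform, shapes the histological type and lines the means of each isoform in a cluster. At the first probe the isoforms cover nearly the same range, with means over all clusters of 0.06 for p75 and 0.02 for p110. There 3 of the 4 adenosquamous carcinomas lie at 0.76 or above while p75-101 lies at -1.44.

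Adenosquamous carcinomas, mammary tumors in which part of the epithelium takes on a squamous form, had a log2 ratio of 0.54 ± 1.37 (SD, n = 4), against -0.45 ± 0.99 (SD, n = 9) in solid carcinomas. The 4 are all p75 tumors. Those in the high-Wnt cluster, p75-80, p75-94 and p75-47, had 1.68, 1.13 and 0.76, and p75-101 in the low-Wnt cluster had -1.44. Within the clusters the types differed by -0.02 (standard error 0.38, 95% interval -0.85 to 0.82), which did not pass (limma adjusted p = 0.993). In the high-Wnt cluster 3 adenosquamous carcinomas stood against 1 solid carcinoma, p110-225, which is among the 3 tumors of weakest color. In the low-Wnt cluster p75-101 stood against 6 solid carcinomas, and the medium-Wnt cluster held no adenosquamous carcinoma. Without the 3 tumors of weakest color the difference was -0.43, from p75-101 alone against the 6 low-Wnt solid carcinomas. Within clusters and over these 2 types alone it was -0.04, with an exact permutation p of 0.964, where the 28 arrangements allow no p below 0.0357. Limma called 0% of all genes in this comparison, with 2955 of 27670 genes at an unadjusted p under 0.05, and 0% of all probes, with 4088 of 41174 at that level. At A_51_P152040 the difference was -0.76 (standard error 0.21), which did not pass over all probes (limma adjusted p = 0.441), while over the 2 types alone it was -0.72, with an exact permutation p of 0.0357, the smallest of the 28 arrangements. It was -0.32 (limma adjusted p = 0.966) with the brightness of reference over tumor as a covariate. Without the 3 tumors of weakest color it was -0.32, again from p75-101 alone against the 6 low-Wnt solid carcinomas. Without p75-101 it was -1.15, where p110-225, at 1.34, was the only solid carcinoma in a cluster that held adenosquamous carcinomas. Among p75 tumors alone this probe averaged 0.14 in the 4 adenosquamous and 0.17 in the 3 solid carcinomas. On 1 scan day p75-94, a high-Wnt tumor, was 1.10 above the medium-Wnt solid carcinoma p75-129, so this pair crosses clusters. On another day p75-101 was -0.68 from the solid carcinoma p75-150, and both are low-Wnt. The 2 adenomyoepitheliomas, p110-374 and p75-90, had 1.56 and 1.22, the adenoma p110-98 had 0.35 and the adenocarcinoma p75-216 had -0.56, with p110-374 in the high-Wnt cluster and the others in the medium-Wnt cluster.

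The genes with which Zfp385a is known to work were set beside it, as 31 genes of p53 regulation and p53 response. Limma called 0 of the 31 between high-Wnt and low-Wnt tumors, in a comparison that called 0.249% of all genes, and 7 of the 31 had an unadjusted p under 0.05, as did 12.1% of all genes. Of the 31, 23 had their higher mean in the high-Wnt cluster, as did 55.1% of all genes, with a median difference of 0.28, against 0.02 over all genes tested. The list holds 23 genes measured in at least 12 tumors, and their r with Zfp385a over the tumors had a median of 0.04, from -0.60 for Ei24, a gene of cell death and autophagy, to 0.66 for Polk, a DNA polymerase that copies past lesions.

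**Figure D4:**
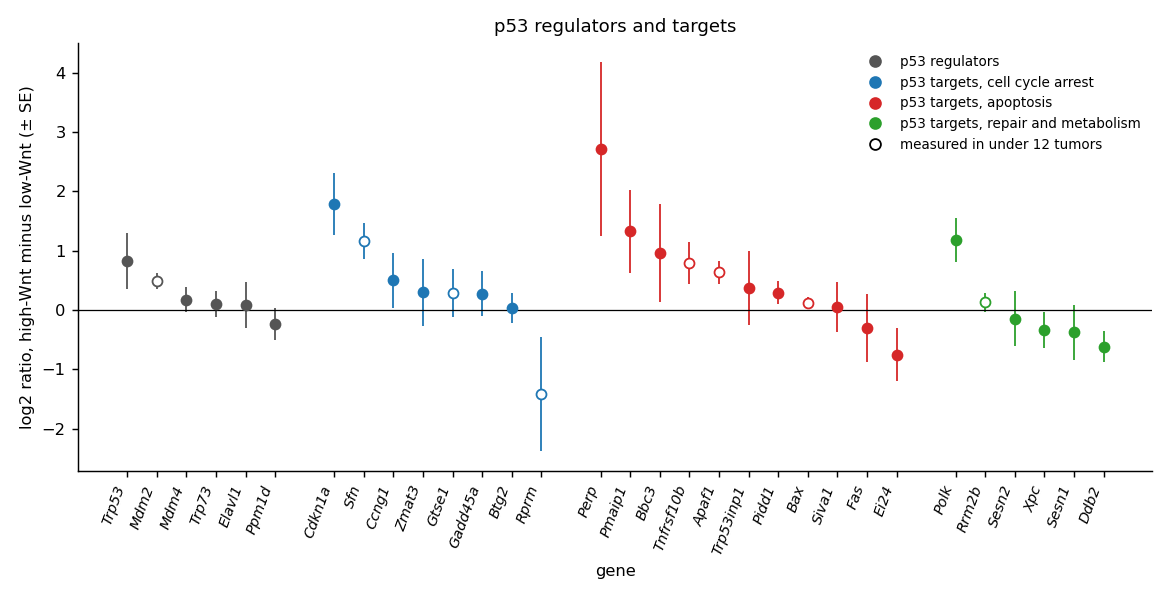
High-Wnt minus low-Wnt difference in log2 ratio, with its standard error from limma, for the 31 genes of the p53 lists, grouped by role, with open points for genes measured in fewer than 12 tumors. The difference is above 0 for 23 genes, 0 pass after adjustment, and Perp at 2.71 and Cdkn1a at 1.79 have the largest values.

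Among the 6 regulators of p53, 5 were above 0, with a median difference of 0.14. Trp53, which encodes p53, averaged -0.21 ± 1.07 (SD, n = 5) over the high-Wnt and -1.03 ± 0.49 (SD, n = 7) over the low-Wnt tumors. These means differed by 0.82 (limma adjusted p = 0.528), and the values overlapped. Mdm2, the ubiquitin ligase that removes p53 and is also its target, differed by 0.49 (limma adjusted p = 0.148) and was measured in 9 tumors. The RNA-binding protein gene Elavl1 differed by 0.09 (limma adjusted p = 0.951).

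Among the 8 targets of cell cycle arrest, 7 were above 0, with a median difference of 0.29. Cdkn1a, which encodes the kinase inhibitor p21, had a log2 ratio of 0.69 in p75-94, 0.43 in p75-47, 0.25 in p75-80, -0.64 in p110-374 and -1.81 in p110-225. In the low-Wnt tumors it ran from -3.23 to -0.43, with a median of -2.07. The p75 high-Wnt tumors were above all low-Wnt tumors and the p110 high-Wnt tumors were not. Both p110 high-Wnt tumors are among the 3 of weakest color, and Cdkn1a was measured in 4 of the 5 high-Wnt tumors. The means of -0.21 ± 1.02 (SD, n = 5) and -2.0 ± 0.86 (SD, n = 7) differed by 1.79 (standard error 0.53, limma adjusted p = 0.168), and its r with Zfp385a was 0.52. Sfn, which encodes the checkpoint protein 14-3-3 sigma, averaged 0.50 ± 0.72 (SD, n = 5) over the high-Wnt and -0.67 ± 0.53 (SD, n = 7) over the low-Wnt tumors. It differed by 1.17 (standard error 0.30, limma adjusted p = 0.117) and was measured in 10 of the 17 tumors.

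Among the 11 targets of apoptosis, 9 were above 0, with a median difference of 0.37. Perp, a membrane protein gene of desmosomes that p53 and p63 induce, had the largest difference of the lists, 2.71 (limma adjusted p = 0.495), with low-Wnt values from -5.34 to 3.0 that overlapped with the high-Wnt values. Bbc3, which encodes the death factor PUMA, differed by 0.96 (limma adjusted p = 0.686) and Apaf1, which encodes the core of the apoptosome, by 0.64 (limma adjusted p = 0.175). Apaf1 was the only one of the 31 (3.23%) without overlap between the clusters, against 1.71% of all genes, and 1 high-Wnt and 3 low-Wnt tumors had it measured. Of the 6 genes of repair and metabolism, 2 were above 0, with a median of -0.24, and Polk differed by 1.18 (limma adjusted p = 0.187).

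Between the isoforms limma called 5 of the 31, or 16.1%, against 4.19% of all genes. Elavl1 was 1.12 higher (adjusted p = 0.00556), Gtse1 0.95 higher and Rrm2b 0.40 higher in p75 than in p110 tumors by limma, while Bbc3 differed by -2.0 and Mdm4 by -0.51. Gtse1 and Rrm2b were measured in 3 and 2 tumors. Without the 3 tumors of weakest color limma called 0 of the 31 (lowest adjusted p = 0.154) and 10 of all genes. Between adenosquamous and solid carcinomas limma called 0 of the 31.

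The RNAs known to be bound by the Zfp385a protein did not pass between the clusters. Itpr1, which encodes a calcium channel of the endoplasmic reticulum, averaged -0.06 ± 0.61 (SD, n = 5) over the high-Wnt and 0.70 ± 0.60 (SD, n = 7) over the low-Wnt tumors. It differed by -0.76 (limma adjusted p = 0.508), with r = -0.49 to Zfp385a. Cebpa, a transcription factor gene of fat cell differentiation, averaged 1.21 ± 0.57 (SD, n = 5) and 1.61 ± 0.57 (SD, n = 7) over these clusters. It differed by -0.41 (limma adjusted p = 0.625), with r = -0.25. Cebpa was lower in p75 than in p110 tumors, with a difference of -0.69 (limma adjusted p = 0.0484), or -0.72 (limma adjusted p = 0.334) without the 3 tumors of weakest color. An array reads the amount of an mRNA and not its translation.

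The genes whose pattern was most like that of Zfp385a were sought among the 9465 genes measured in at least 12 tumors, by Pearson r over the 17 tumors, as a description without p. Over these genes r had a median of -0.05 and a 5th to 95th percentile of -0.631 to 0.547, and 10 genes reached 0.8. The first was Slc16a6, a monocarboxylate transporter gene, with r = 0.886 (rho = 0.875), from -3.61 in p75-534 to 2.53 in p75-94. Plcd1, a phospholipase C gene, followed with r = 0.851 over 16 tumors, as p110-121 had no value left for it without outlier spots. The transcript listed as ENSMUST00000016768, to which the files pair no symbol, had 0.846. Next came Hspb1, a small heat shock protein gene, with 0.836 and Hopx, a homeodomain-only protein gene, with 0.835. Cnn2, a calponin gene of the actin cytoskeleton, had 0.831 and G6pdx, the first enzyme of the pentose phosphate pathway, 0.829. Cers6, a ceramide synthase gene, had 0.823, Nfil3, a bZIP repressor gene, 0.809 and Wnt6, a Wnt ligand gene, 0.805. The most opposed were Car2, a carbonic anhydrase gene, with r = -0.891, Map2, a microtubule protein gene, with -0.875, Lin9, a cell cycle regulator, with -0.872, and, among the first 5, Wnt5b, a Wnt ligand gene, with -0.863.

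Since Zfp385a was chosen by its difference between clusters, genes that differ between clusters follow it. With each cluster's mean taken out, r was 0.77 for Slc16a6, 0.74 for Plcd1, 0.73 for Nfil3, 0.71 for Cnn2 and for Cers6, but 0.36 for ENSMUST00000016768 and 0.25 for Wnt6. As the 10 genes were picked by r over the same tumors, these values are part of that choice. Against A_51_P152040 the r of the 10 genes was 0.10 to 0.57. With the tumor's color read alone, 8 of the 10 stayed among the 100 genes most like Zfp385a, but only 1 among the first 10.

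**Figure D5:**
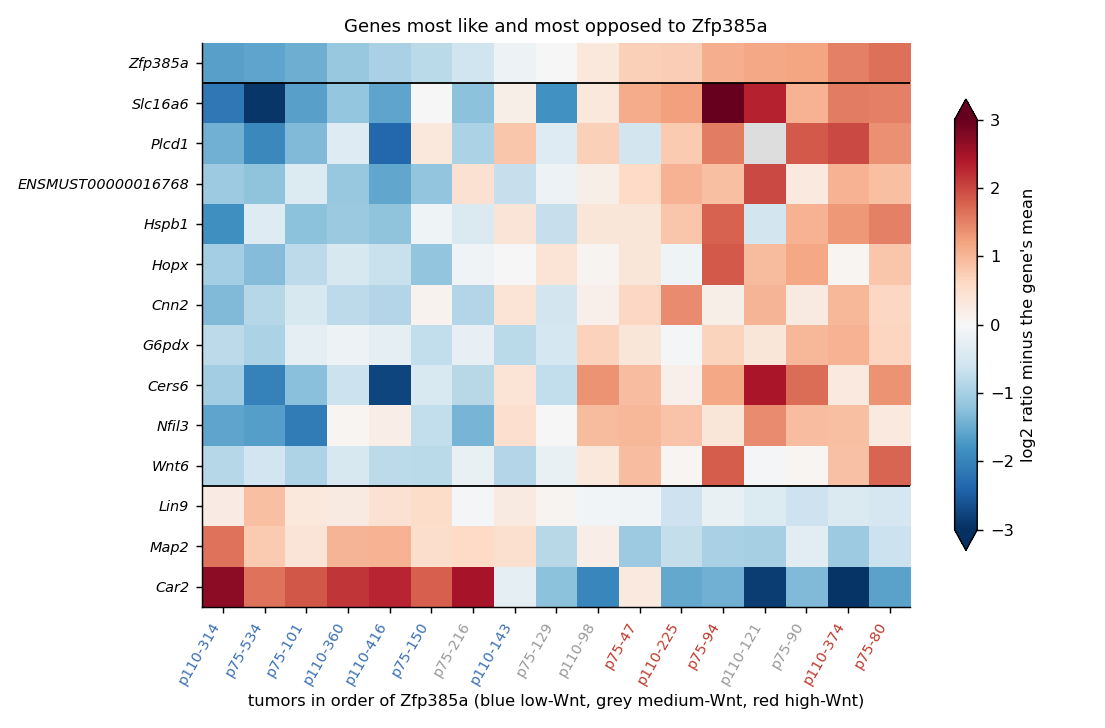
Log2 ratio of tumor over reference, minus each gene's mean, for Zfp385a, the 10 genes most like it and the 3 most opposed, with the 17 tumors ordered by Zfp385a and gray where there is no value. The like genes, with r from 0.805 to 0.886, pass from low to high in the same direction as Zfp385a, and the opposed genes, with r from -0.891 to -0.872, in the other.

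Beside the Wnt genes on which the clusters rest, r with Zfp385a was 0.758 for Wnt10a, and among the transcription factors of the Wnt response 0.810 for Lef1 and 0.699 for Tcf7. It was 0.814 for Glis1, a Gli-related zinc finger gene, and -0.06 for Axin2, a feedback inhibitor of the pathway. Lef1 was measured in 3 tumors, Glis1 in 4, Tcf7 in 9 and Axin2 in 1, so these ratios mostly rest on signals near background.

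The genes beside Zfp385a on the chromosome did not share 1 pattern. On the side of lower coordinates in GRCm38, Gpr84, a fatty acid receptor gene, had r = 0.69 and was 1.47 higher in high-Wnt tumors, which did not pass (limma adjusted p = 0.187), without overlap and measured in 8 tumors. Beyond it Copz1, a coatomer subunit gene measured in 17 tumors, had r = -0.56 and differed by -0.66 (limma adjusted p = 0.407), and Nfe2, an erythroid factor gene measured in 2 tumors, had r = -0.41. On the other side Itga5, the fibronectin receptor subunit gene, had r = 0.70 but was measured in 2 tumors, with a difference of 0.25 (limma adjusted p = 0.327). Gtsf1 differed by 1.03 (limma adjusted p = 0.252) and was measured in 5 tumors, and Gtsf2 was measured in 0. In the Zfp385 family, Zfp385b has 7 probes, none measured in more than 5 tumors, and its brightest differed by -0.12 (limma adjusted p = 0.577). The probe of Zfp385c was measured in 0 tumors.

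Markers of other cells were read as the summed signal in the tumor's color. The 8 basal and myoepithelial markers, led by the keratins Krt5, Krt14 and Krt17, summed to 282399 to 650977 in high-Wnt, 82612 to 401765 in medium-Wnt and 7183 to 139685 in low-Wnt tumors. The sums did not overlap between high-Wnt and low-Wnt tumors, 8 of the 8 genes had a higher log2 ratio in high-Wnt tumors with a median difference of 1.71, against 55.1% of all genes above 0, and the log2 sum had r = 0.709 with Zfp385a. The 7 of these genes measured in at least 12 tumors had single r of 0.217 to 0.480, with a median of 0.381, so none reached that of the sum. Limma called 0 of the 8, with 2 at an unadjusted p under 0.05, where 12.1% of all genes stood. The 10 squamous markers summed to 2015 to 14261, 1791 to 8338 and 1316 to 1568, again without overlap of high-Wnt and low-Wnt tumors, with r = 0.721, and limma called 0 with 6 of the 10 at an unadjusted p under 0.05, against the same 12.1%. Only Krt10 was measured in at least 12 tumors, with r = 0.60, and 2 were measured in none. The part of basal or squamous cells in the level of Zfp385a was not tested.

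The other markers overlapped between the clusters. The 9 luminal markers summed to 134418 to 510743 in high-Wnt and 198502 to 355363 in low-Wnt tumors, with r = -0.227, and were lowest in a medium-Wnt tumor at 4146. The 7 megakaryocyte and platelet markers, of interest because those cells express Zfp385a, summed to 1255 to 9765 and 2849 to 8839, with r = 0.043, and were highest in a medium-Wnt tumor at 85854. Of the single genes, the integrin subunit genes Itga2b and Itgb3 had r of 0.64, measured in 0 tumors, and 0.58, measured in 17. The platelet glycoprotein genes Gp9 and Gp1bb, with 0.57 and 0.43, were measured in 1 and 2 tumors. The platelet chemokine gene Ppbp, measured in 5 tumors, had r = 0.50 and was 1.57 apart between the high-Wnt and low-Wnt clusters, which did not pass (limma adjusted p = 0.0967). Pf4, another platelet chemokine gene, was measured in 16 tumors and had r = 0.0072. The log2 sums of adipocyte, fibroblast, endothelial and immune markers had r of -0.157, 0.188, 0.361 and -0.094 with Zfp385a. The median r of their genes measured in at least 12 tumors was -0.159, 0.170, -0.391 and 0.103, so sum and median differed in sign for endothelial and immune markers. Of the endothelial genes, Kdr and Emcn had r of -0.45 and -0.39 and Vwf 0.53.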

How the data were processed

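The authors amplified RNA from microdissected tumor cells, hybridized it with reference RNA on 38 Agilent arrays and deposited scanner files from Feature Extraction (version not given in the sources used here), with spot and background intensity in both colors, not normalized. The deposited table of the authors holds log2 ratios, which normexp with an offset of 50, loess and averaging of dye swaps over all spots gave again to within 4.98e-08. The values reported differ slightly, as control and outlier spots were left out. The study names limma.

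With R 4.3.3 and limma 3.58.1, mean signals were corrected by normexp with an offset of 50, controls and outlier spots (0.545%) were left out, each array was loess normalized, oriented as tumor over reference by the deposited dye list and averaged by tumor. The number of arrays limits the precision. The brightest probe stood for a gene. RefSeq accessions named 22951 of 41174 probes, and 3109 older symbols were updated. Comparisons used lmFit and eBayes (Benjamini-Hochberg, threshold 0.05) over all genes or probes and all 17 tumors, with the Wnt cluster as covariate for isoform and histology, and exact two-sided permutation within clusters for single values. The clusters were read from the study's own figure, since the sample labels do not give them. Labels do not say more of the replicates than 1 mouse for each tumor. The named genes were Zfp385a, its family, the p53, linked RNA, Wnt and marker lists, the 10 most like and 5 most opposed genes (1 not reported here), and 3 neighbors on each side. Members and lists were chosen with earlier results of these data known. The fits were tested on simulated data. The alternatives were other background corrections, normalizations, probes, dyes, batches (10 scan days, 15 slides), covariates and samples. Figures used matplotlib 3.10.9.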

Additional observations from a re-analysis of the deposited data

How the results depend on the processing

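No paired analysis was possible because mouse numbers are not shared between groups. The high-Wnt minus low-Wnt difference of Zfp385a, 2.25, stayed within the spread of the tumors under 13 of 16 alternatives. It was 1.35 with median centering, where the clusters overlapped, 0.88 with the mean of all probes and 0.36 with A_51_P152040 alone, an alternative added after seeing the data, and 2.13 to 2.41 with single tumors left out. The medium-Wnt minus low-Wnt difference, 1.52, was 2.20 with arrays scaled to the same spread, 0.66 with the mean of all probes and 0.43 with A_51_P152040 alone, and 1.32 to 1.77 with single tumors left out. The p75 minus p110 difference, -0.28, kept its direction and did not pass under 16 of 20 alternatives. It was 1.15 with median centering (limma adjusted p = 0.0646), 0.049 with scaled arrays and 0.037 without the Wnt cluster in the model, and -0.71 with A_51_P152040 (limma adjusted p = 0.0210, the lowest of its alternatives, the highest being 0.986). With single tumors left out it was -0.40 to -0.17, and -0.51 without the 3 tumors of weakest color. Scan year could not be fitted beside the isoform. The adenosquamous minus solid difference, -0.02, took the other sign without background correction (0.042), with median centering (1.26), scaled arrays (0.33), the authors' table (0.0078), the tumor in Cy3 alone (0.15), the share of probes above background as covariate (0.10), scan year as a block (0.32) and without the Wnt cluster (0.98), and ran from -0.24 to 0.36 with single tumors left out, with -0.43 without the 3 tumors of weakest color. It passed under none of them, with a lowest limma adjusted p of 0.345. The -0.43 set p75-101 alone against the low-Wnt solid carcinomas. The -0.24 came without p110-225, where p75-101 was the only adenosquamous carcinoma in a cluster that held solid carcinomas. The 0.36 came without p75-101, where p110-225 was the only solid carcinoma in a cluster that held adenosquamous carcinomas. Limma called 0 of the p53 genes under 17 alternatives and 17 omissions.

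Counts over all genes moved more. Limma called 69 genes between high-Wnt and low-Wnt tumors, 0 without background correction, with median centering or with scaled arrays, 143 with those tumors alone, and from 7 without p110-360 and 8 without p110-374 to 137 without p75-216. It called 1158 between the isoforms, 10 without the 3 tumors of weakest color, from 321 without p110-374 to 1640 without p110-314 and 5602 with median centering, of which 5148 were higher in p75 tumors. Between the histological types it called 0. Without p75-101, p110-225 was the only solid carcinoma in a cluster that held adenosquamous carcinomas. Without the 3 tumors of weakest color, p75-101 was the only adenosquamous carcinoma in a cluster that held solid carcinomas. Counts from these fits rest on 1 tumor and are not given. What moved the counts of the other comparisons was not tested. Signals near background limit what can be said of Lef1, Glis1, Axin2 and most squamous markers.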

Other observations

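Sprr1a, which encodes a precursor of the cornified envelope of squamous cells, was the squamous marker whose log2 ratio followed Zfp385a most closely over the 17 tumors, with r = 0.84. It was measured in 11 tumors, and it was chosen after its values were seen. It averaged 0.19 in high-Wnt and -3.16 in low-Wnt tumors, and these means differed by 3.35, which did not pass (limma adjusted p = 0.103).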
